A study of Mus musculus with 12 samples.

Results

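The effect of diabetes on kidney gene expression that mice with and without the chemokine receptor D6 have in common was measured over all 12 arrays of the study. The arrays were chosen by source name: 6 were diabetic (3 OVE and 3 OVE-D6) and 6 were non-diabetic (3 FVB and 3 D6). FVB mice had intact D6 and no diabetes, and D6 mice were non-diabetic homozygotes for the deletion of D6, the product of Ackr2, which binds inflammatory CC chemokines and degrades them without signalling. OVE mice were diabetic with intact D6, and OVE-D6 mice were diabetic and homozygous for the deletion. All 4 groups were of the FVB strain and were killed at 6 months of age, and per the labels the deletion was moved from C57BL/6 to FVB by at least 10 generations of breeding before the D6 mice were mated with OVE mice. OVE is known in the field as a line that carries a calmodulin transgene under an insulin promoter, which damages the beta cells of the pancreas, so that the mice lack insulin from early in life. Whole frozen kidneys were used, 1 array per mouse, and the non-diabetic mice lacked the transgene as well as the disease.

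A kidney deprived of insulin signalling filters more glucose than usual and receives more fatty acids from the blood. The proximal tubule, the largest part of the cortex, reabsorbs filtered glucose and draws most of its energy from fatty acids, under the control of the nuclear receptor PPAR alpha. The synthesis of sterols and fatty acids is controlled by the SREBP factors, which insulin activates. Lasting diabetes in mice is also known for loss of podocyte and distal tubule genes and for injury, scarring and entry of macrophages.

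Values are the deposited log2 values, so a difference of 1 is a 2-fold change. For each of 16480 tested genes the averaged effect is the mean of the difference OVE minus FVB and the difference OVE-D6 minus D6. A gene is said to have risen or fallen where limma's moderated test with Benjamini-Hochberg adjustment gave an adjusted p below 0.05. Errors are standard errors of the fit unless named otherwise, and every group has n = 3. The labels do not say whether mice of one group were littermates, and the p-values measure the spread between these mice.

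A few facts of the arrays bear on the results. Array medians lay between 6.84 and 6.93, and arrays of one group correlated at 0.985 to 0.993 over genes. The first principal component took 35.9% of the variance and set OVE replicates 1 and 2 (scores of 27.0 and 29.4) apart from OVE replicate 3 (6.9) and from the remaining arrays (-15.1 to 5.2). OVE-D6 replicate 3 carried genes of the adrenal gland: the cortical enzyme Cyp11b1 was at 9.93 there and between 5.27 and 5.76 on the other 11 arrays. Xist was at 12.53 to 12.87 on all 12 arrays and the Y-linked gene Eif2s3y at 3.55 to 3.83, so all 12 arrays read as female and none stood apart by sex. The Ackr2 probe set read 6.74 to 6.97 in non-diabetic and 6.81 to 7.04 in diabetic arrays in both genotypes, and which part of the gene it covers relative to the deletion is not known here, so it checked no label. The median averaged effect of all tested genes was -0.01.

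Diabetes changed 1260 of the 16480 genes in the averaged effect (7.65%). Of these, 740 rose (4.49%) and 520 fell (3.16%). Most changes were small: the median was 0.395 among the genes that rose and -0.315 among those that fell, and 33 genes rose and 6 fell at least 2-fold. In 487 of the 1260 genes, all 6 diabetic arrays lay on one side of all 6 non-diabetic arrays, which was so for 3.42% of all tested genes (1.73% with the diabetic arrays higher and 1.69% with them lower). The count was 1916 without OVE replicate 3, and 657 without OVE-D6 replicate 3, 695 without FVB replicate 3, 718 without D6 replicate 2, 805 without OVE replicate 2 and 809 without FVB replicate 2. Without OVE replicate 3, 1182 of the 1260 remained past the threshold, and without OVE-D6 replicate 3, 637 did.

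How far the effect was shared differed between genes. In OVE against FVB alone 1200 genes passed (7.28%; 4.9% higher and 2.38% lower), and in OVE-D6 against D6 alone 47 did (0.285%; 0.182% higher and 0.103% lower), with 1645 at an unadjusted p below 0.05 (9.98%). These 2 comparisons share no array. Both are contrasts of the joint fit of all groups and share its estimate of each gene's spread, so their calls are not independent. Here and below, alone names the contrast within 1 genotype and not a separate fit. Fitted separately on the arrays of each genotype, OVE against FVB gave 440 genes and OVE-D6 against D6 gave 51. Of these, 31 passed in both in the same direction. In the joint fit, all 47 genes of OVE-D6 against D6 moved the same way in OVE against FVB. Of all tested genes, 62.9% had the same sign in both. Of the 47 genes, 40 passed in both: 26 rose (0.158%) and 14 fell (0.085%), together 0.243% of tested genes. Conversely, of the 808 genes that rose in OVE against FVB, 192 (23.8%) were higher in OVE-D6 than D6 at an unadjusted p below 0.05, against 4.78% of all genes, and of the 392 that fell, 165 (42.1%) were lower there, against 5.2%. In the test of the difference between genotypes, 0 genes passed with limma's default settings, with a variance trend and robust fit, or with array weights, while 1647 had an unadjusted p below 0.05 (9.99%). That count of 0 rests on OVE replicate 3: without it 377 genes passed (2.29%), 351 of them with a higher and larger change in OVE, and 113 of the 377 are among the 1260. Without D6 replicate 1 the count was 1. The other counts also moved when an array was left out. For OVE against FVB the count was 1901 without OVE replicate 3, 359 and 716 without OVE replicates 2 and 1, and 671, 476 and 427 without FVB replicates 1, 2 and 3. For OVE-D6 against D6 it was 22, 18 and 17 without D6 replicates 1, 2 and 3, 19, 25 and 17 without OVE-D6 replicates 1, 2 and 3 and 74 without OVE replicate 3. The 40 genes called in both were 19, 16 and 15 without those D6 arrays and 17, 23 and 16 without those OVE-D6 arrays.

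Genes that fell more often kept at least 50% of their change in the knockouts, a difference that was not tested. Among the 520 that fell, the change in the knockouts was at least 50% of that in mice with intact D6 in 385 (74.0%), and among the 740 that rose in 383 (51.8%). These counts have no upper limit. The knockout change was the larger one in 132 of the 520 (25.4%) and in 142 of the 740 (19.2%). The median change of the genes that rose was 0.526 in OVE against FVB and 0.256 in OVE-D6 against D6, and of those that fell -0.361 and -0.267. Both genotypes enter the averaged effect, so these shares describe the genes and are no separate test. The plot of the change in one genotype against the other shows the 40 genes near the diagonal and a wide group of risen genes that lies to its right. The 40 were picked by their calls in both of the plotted contrasts, so their place there is no separate test.

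**Figure D1:**
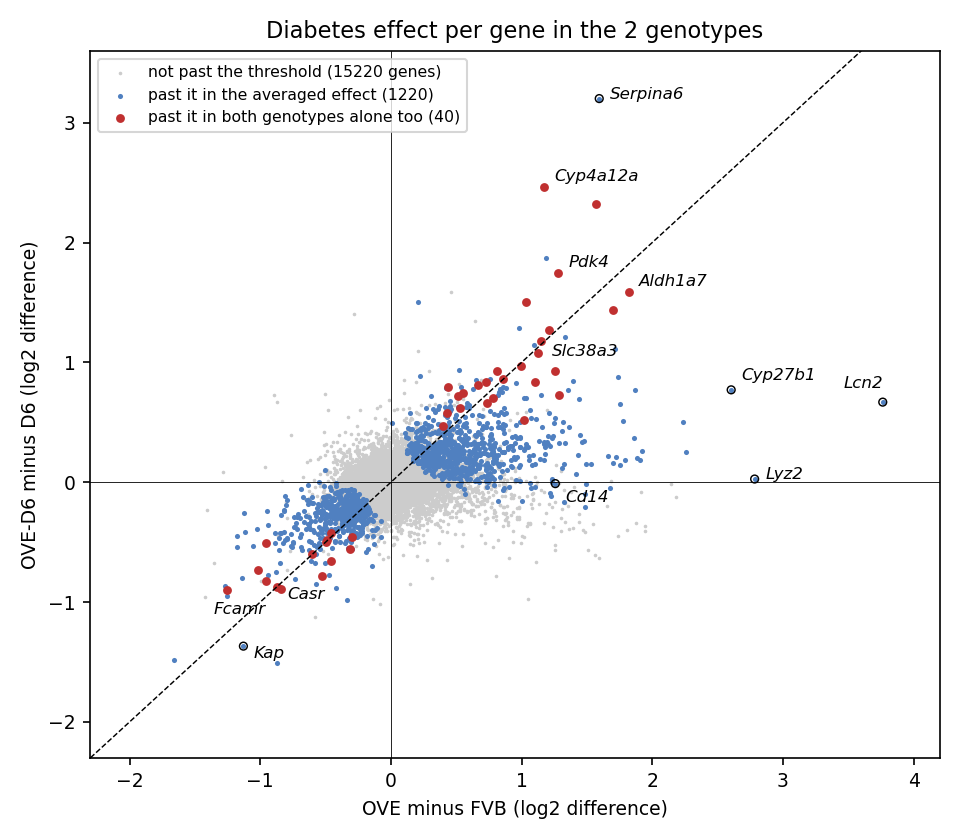
Each point is 1 of 16480 tested genes, with the log2 difference OVE minus FVB on the horizontal axis and OVE-D6 minus D6 on the vertical axis; the dashed line marks equal changes, blue points passed in the averaged effect, red points also in both genotypes alone, and rings mark 6 labelled genes that are not red. Aldh1a7, Slc38a3 and Casr lie near the line, and Lcn2, Lyz2 and Cd14 lie near a knockout change of 0.67, 0.03 and -0.01.

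Among genes that rose and whose diabetic and non-diabetic arrays did not overlap, Cyp4a12b and Cyp4a12a, which omega-hydroxylate fatty acids and arachidonic acid, changed most. Cyp4a12b read 8.05, 8.36 and 9.19 (lowest, median and highest) in non-diabetic arrays and 9.65, 10.54 and 10.95 in diabetic arrays. It rose 3.85-fold (log2 1.95 ± 0.19, adjusted p = 0.000253), by 1.57 in mice with intact D6 and by 2.32 in knockouts. Cyp4a12a rose 3.53-fold (1.82 ± 0.21), and since both genes are near-identical neighbours on chromosome 4 their probe sets may read each other's RNA. All diabetic arrays were above all non-diabetic arrays in both.

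The aldehyde dehydrogenase genes Aldh1a7 and Aldh1a1 rose too. Aldh1a7 read 6.09, 6.18 and 6.74 in non-diabetic and 7.51, 8.17 and 8.34 in diabetic arrays and rose 3.26-fold (1.70 ± 0.11, adjusted p = 1.89e-05), by 1.82 and 1.59 in the 2 genotypes. Its close copy Aldh1a1, an enzyme that makes retinoic acid, rose 2.42-fold (1.27 ± 0.16), with 7.86 to 8.87 in non-diabetic and 9.12 to 9.91 in diabetic arrays, and cross-reading between them was not tested. Bbox1, the last enzyme of carnitine synthesis, rose 2.36-fold (1.24 ± 0.13), from 6.15 to 6.72 up to 7.2 to 8.16. Mtarc1, a mitochondrial amidoxime reductase, rose 2.41-fold (1.27 ± 0.13), from 6.90 to 7.19 up to 7.80 to 9.0. In all 4 the groups were separate, and Aldh1a7, Bbox1 and Mtarc1 passed in each genotype alone.

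Slc38a3, the glutamine carrier that feeds ammonia production in the proximal tubule, was the most even of the strong rises. Its values were 9.78, 9.95 and 10.12 in non-diabetic and 11, 11.11 and 11.31 in diabetic arrays. It rose 2.24-fold (1.16 ± 0.08, adjusted p = 1.89e-05), by 1.15 in mice with intact D6 and 1.18 in knockouts, a difference between genotypes of 0.03 ± 0.15. Clca3a1 and Clca3a2, neighbouring copies of a calcium-activated chloride channel regulator, rose 2.66-fold and 2.50-fold. Clca3a2 was less even: it changed by 1.87 in mice with intact D6 and 0.77 in knockouts, and its interaction had an unadjusted p of 0.0014 and an adjusted p of 0.225. Col12a1, a collagen that binds fibrils, rose 2.47-fold, by 1.73 and 0.88.

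The genes that fell most include transporters and enzymes of the proximal tubule. Slc22a26, an organic anion transporter gene of a cluster of close copies on chromosome 19, read 8.62, 9.18 and 10.31 in non-diabetic and 6.72, 7.95 and 8.18 in diabetic arrays. It fell 2.97-fold (-1.57 ± 0.21, adjusted p = 0.0016), by 1.66 and 1.49 on the log2 scale in the 2 genotypes. Kap, an androgen-controlled protein of the proximal tubule, read 12.91, 13.33 and 13.55 against 11.45, 11.96 and 12.80 and fell 2.38-fold (-1.25 ± 0.20, adjusted p = 0.00402). Sec14l3, a lipid-binding protein, fell 2.28-fold (-1.19 ± 0.18), from 7.79 to 8.43 down to 6.18 to 7.45. No diabetic array of these 3 genes reached the lowest non-diabetic one.

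Casr, the calcium-sensing receptor, which sits mainly in the thick ascending limb and restrains calcium reabsorption, fell by the same amount in both genotypes. It read 10.24, 10.29 and 10.42 in non-diabetic and 9.31, 9.42 and 9.58 in diabetic arrays, a fall of 1.83-fold (-0.87 ± 0.06, adjusted p = 2.84e-05). The changes were -0.88 and -0.87, and the difference between genotypes was 0.00 ± 0.13. Npr3, the clearance receptor for natriuretic peptides, was as even: it fell 1.52-fold, by 0.60 on the log2 scale in each genotype. Fcamr, a receptor for immunoglobulin M, fell 2.11-fold (-1.08 ± 0.10), from 7.34 to 7.76 down to 6.17 to 6.97. Agmat, an enzyme of agmatine breakdown, fell 1.84-fold, Akr1c20, one of several close aldo-keto reductase copies, 1.85-fold, and Anxa13, an epithelial annexin, 1.82-fold. These 6 genes passed in each genotype alone.

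Further genes with separate groups were Esm1, a proteoglycan of endothelial cells, which fell 2.10-fold (-1.07 ± 0.18, adjusted p = 0.00565), and Dusp15, a phosphatase, which fell 1.76-fold. Wfdc15b, a protease inhibitor-like protein, fell 1.73-fold (adjusted p = 0.0288), but its adjusted p was 0.0739 without OVE-D6 replicate 3. Nepn, a small proteoglycan, fell 2.15-fold, from 7.58 to 8.22 in non-diabetic to 6.11 to 7.62 in diabetic arrays, which overlap. Tprg fell 1.58-fold, but its diabetic values of 5.40 to 5.72 lie under 5.93, a background level taken from 1027 olfactory receptor genes (95th percentile of their means), so the size of the fall is uncertain.

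**Figure D2:**
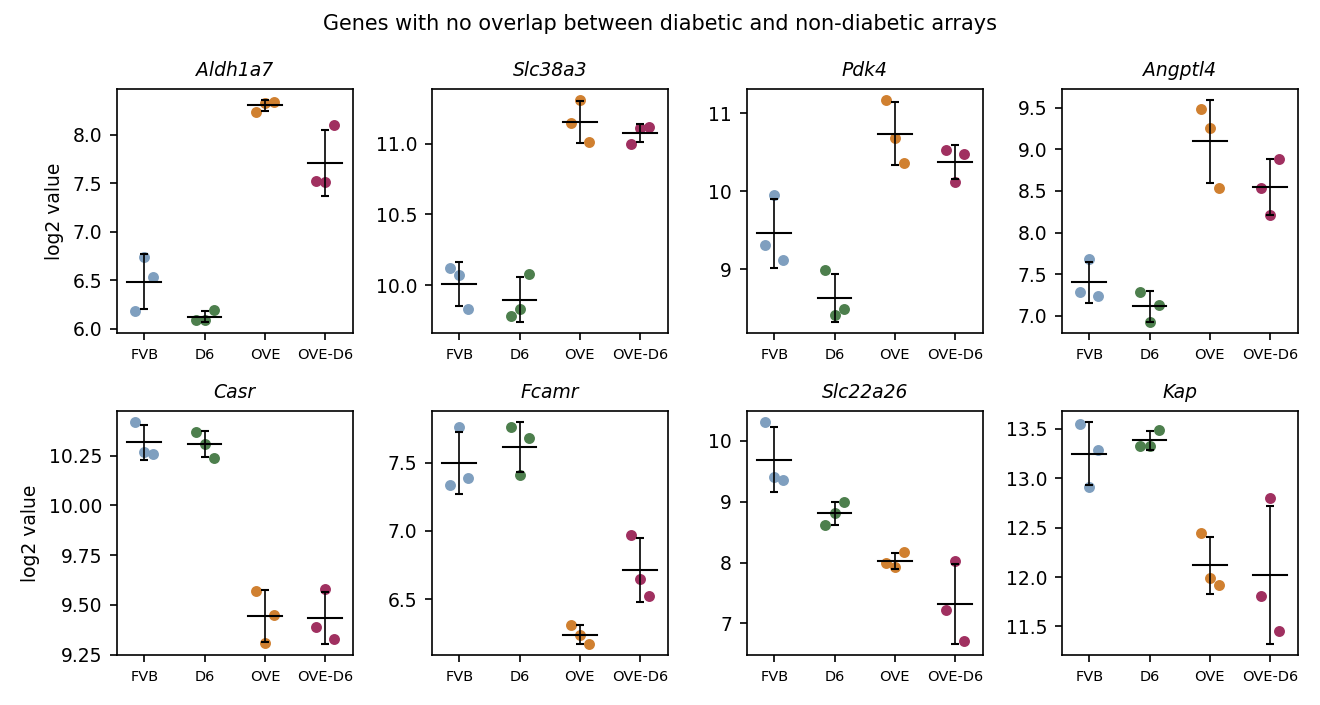
Deposited log2 values of 8 genes on each array (points, 3 per group), with the group mean (line) and SD (bar); the axes do not start at 0. In each gene all 6 diabetic arrays lie on one side of the 6 non-diabetic arrays, for example Casr at 9.31 to 9.58 against 10.24 to 10.42.

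One microRNA gene stood among the strongest falls. The probe set of Mir218-1, a hairpin in an intron of Slit2, read 7.70, 7.98 and 8.13 in non-diabetic and 6.68, 7.17 and 7.60 in diabetic arrays and fell 1.71-fold (-0.77 ± 0.13, adjusted p = 0.00574), by 0.74 and 0.81 in the 2 genotypes. The groups did not overlap. The probe set reads the hairpin gene and not the mature strand, whose amount was not measured. The mature 5p strand is given here from RefSeq (GRCm38.p6, chr5:48223966-48223986, plus strand) with its seed, bases 2 to 8, in capitals, since the seed is what pairs with target transcripts.
mmu-miR-218-5p: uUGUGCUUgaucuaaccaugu

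Part of the genes of fatty acid oxidation and other PPAR alpha targets rose. Of 32 listed genes 29 were tested, 17 rose and 0 fell, against 4.49% and 3.16% of all genes, and the median change was 0.33 against -0.01. These values over all genes are also the background of each later list. The mean of the list lay at -0.11 to 0.11 on the non-diabetic arrays, 0.25 to 0.49 on OVE and 0.33 to 0.42 on OVE-D6 arrays, all relative to the non-diabetic mean. The change was larger in size, whatever its sign, in knockouts than in mice with intact D6 in 23 of the 29 genes. This was so in 6145 of all 16480 genes. The medians were 0.43 and 0.20, and 4 genes of the list had an unadjusted p below 0.05 for the difference between genotypes. Leaving out each array in turn left 15 to 18 risen genes.

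The list divides by role. Among its regulators, Angptl4, a secreted inhibitor of lipoprotein lipase, read 6.92, 7.26 and 7.68 against 8.21, 8.72 and 9.49 and rose 2.96-fold (1.57 ± 0.16, adjusted p = 0.000286). Pdk4, the kinase that shuts pyruvate out of the citric acid cycle, read 8.42, 9.05 and 9.96 against 10.12, 10.51 and 11.17 and rose 2.85-fold (1.51 ± 0.17, adjusted p = 0.000529). Neither showed an overlap, and both passed in each genotype alone. Creb3l3, a transcription factor of lipid metabolism, rose by 0.45 and the lipid droplet coat Plin2 by 0.53.

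Several other enzymes of the list rose. Acot1, a cytosolic acyl-CoA thioesterase, rose 1.83-fold (0.87 ± 0.11), and its close copy Acot2 by 0.51. Vnn1, which makes pantothenic acid and cysteamine, rose 1.48-fold (0.57 ± 0.10), with an overlap of the groups at 10.28 and 10.29. The omega-hydroxylases Cyp4a14 and Cyp4a10 rose by 0.52 and 0.43. In the mitochondrion the carnitine carrier Slc25a20 rose by 0.35 and Cpt2, which frees acyl groups from carnitine, by 0.33. Decr1 and Eci1, which act on unsaturated chains, rose by 0.34 and 0.42, and Acaa2 rose by 0.22. In the peroxisome Ehhadh and Eci2 rose by 0.31 and 0.38. Other enzymes of the pathway did not pass: Cpt1a was at 0.11 ± 0.06, Acadm at -0.16 ± 0.08 and Hadha at -0.05 ± 0.05. Acadl, Acadvl, Acads, Hadhb and Hadh did not pass either. Of 26 tested genes of the respiratory chain and ATP synthase 0 passed with limma, and 0 had an unadjusted p below 0.05, with changes from -0.09 to 0.11.

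**Figure D3:**
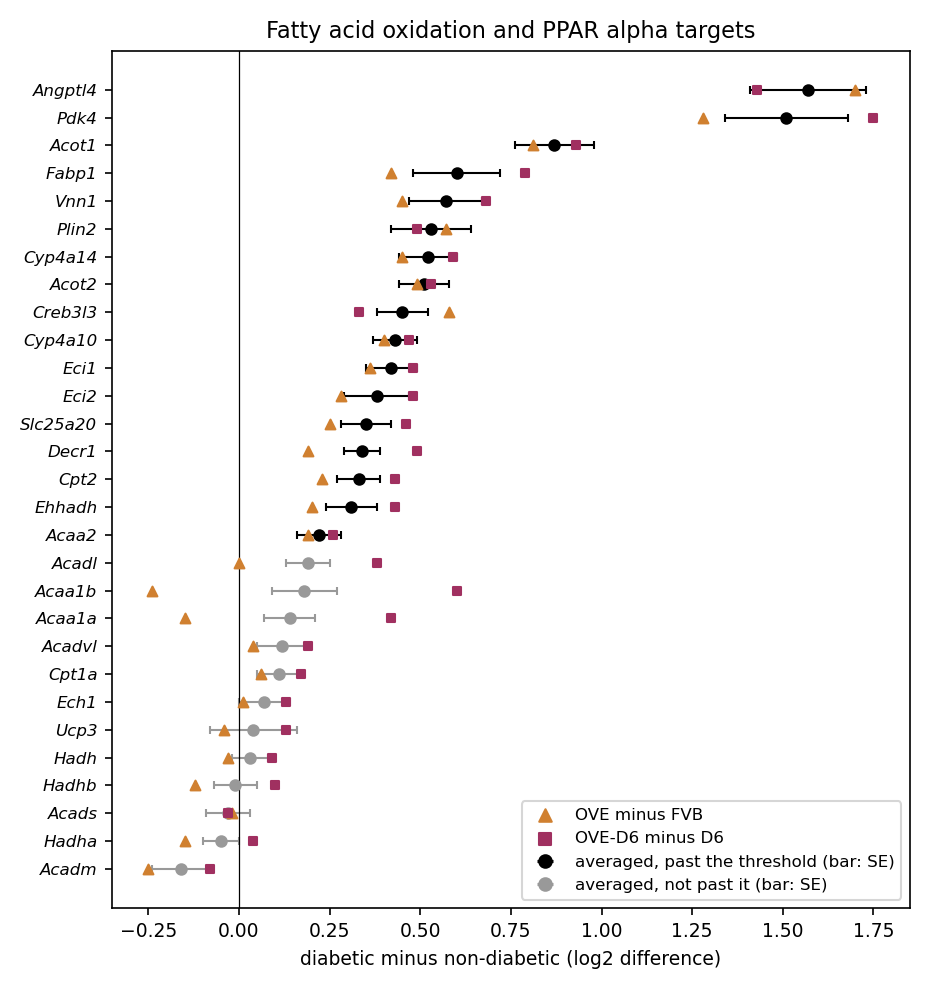
Log2 difference between diabetic and non-diabetic arrays for the 29 tested genes of fatty acid oxidation and PPAR alpha action: circles with SE bars give the averaged effect (black where the gene passed), triangles OVE minus FVB and squares OVE-D6 minus D6. The 17 genes that rose run from Acaa2 at 0.22 to Angptl4 at 1.57, and the squares lie farther from 0 than the triangles, on either side, in 23 of 29 genes.

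Fabp1, the liver-type fatty acid binding protein and a classical PPAR alpha target, rose 1.52-fold (0.60 ± 0.12, adjusted p = 0.0138), from 5.65, 5.77 and 5.97 to 5.82, 6.52 and 6.69, so the groups overlapped, and both non-diabetic group means lie under the background level of 5.93, so the size of the rise is uncertain. Its promoter is the one among the 23 list members with a RefSeq promoter (250 bases before to 50 after the start) that holds the DR1 motif AGGNCANAGGNCA, searched on both strands, which is how PPAR alpha and its partner are known to bind DNA. The motif occurs in 0.451% of the promoters of 27025 genes. The promoter is shown (GRCm38.p6, chr6:71199629-71199928, plus strand) with the match, on the opposite strand 67 to 55 bases before the start, in capitals. A match is a description of the sequence and not evidence of binding here.
Fabp1: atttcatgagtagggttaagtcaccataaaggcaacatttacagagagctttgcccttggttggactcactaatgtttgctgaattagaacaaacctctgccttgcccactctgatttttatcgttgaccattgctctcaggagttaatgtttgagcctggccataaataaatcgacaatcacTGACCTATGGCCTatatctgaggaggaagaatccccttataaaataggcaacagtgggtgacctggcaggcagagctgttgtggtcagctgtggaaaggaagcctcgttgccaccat

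Genes of cholesterol and fatty acid synthesis moved the opposite way. Of 19 tested genes 6 fell and 0 rose, the median change was -0.22, and it was -0.16 and -0.23 in the 2 genotypes. Srebf1, the factor that drives fatty acid synthesis, read 8.63, 8.75 and 8.94 in non-diabetic and 8.09, 8.12 and 8.55 in diabetic arrays and fell 1.47-fold (-0.56 ± 0.08, adjusted p = 0.00285), with no overlap and a call in each genotype. Its target Fasn, the fatty acid synthase, fell 1.55-fold (-0.64 ± 0.18, adjusted p = 0.0485), with overlap at 9.42 to 9.56. Srebf2, the factor for sterol genes, fell by 0.29, the SREBP anchor Insig1 by 0.38 and the sterol enzymes Lss and Mvd by 0.27 and 0.21. The sterol enzyme Hmgcs1 did not pass (-0.08 ± 0.07). Leaving out 1 array left 1 gene (D6 replicate 2), 2 genes (FVB replicate 3, OVE-D6 replicate 1) or 3 genes (OVE replicates 1 and 2, OVE-D6 replicates 2 and 3) past the threshold, and 8 without OVE replicate 3. Of 6 tested genes of ketone body metabolism 2 fell: Oxct1, which activates acetoacetate for use, by 0.40 ± 0.06 with no overlap, and Acat1 by 0.21 ± 0.06, which passed in only 1 of the 12 fits that left out an array, the one without OVE replicate 3.

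Glucose handling changed little. Among 15 genes of glucose transport and gluconeogenesis 2 rose and 0 fell, with a median of 0.00. Slc5a10, a sodium-linked carrier of mannose and fructose, rose 1.5-fold (0.59 ± 0.10, adjusted p = 0.00687), from 10.43, 10.77 and 11.02 to 11.22, 11.33 and 11.60 with no overlap. Slc2a5, the fructose carrier GLUT5, rose 1.32-fold (0.40 ± 0.08), by 0.37 and 0.44 in the 2 genotypes. The glucose carriers Slc5a2 (SGLT2) and Slc2a2 (GLUT2) did not pass, at -0.24 ± 0.08 and 0.35 ± 0.14, and neither did the gluconeogenic enzymes G6pc (0.14 ± 0.13) and Pck1 (0.00 ± 0.07). Of 16 tested glycolysis genes 1 rose, Aldoa by 0.23, and of 8 polyol, fructose and inositol genes 1 fell, the inositol oxygenase Miox by 0.22. An unadjusted p below 0.05 was found in 9 of the 16 and 4 of the 8. The change was above 0 in 13 of the glycolysis genes, with a median of 0.13. Without D6 replicate 1 or 2, FVB replicate 3, OVE replicate 3 or any OVE-D6 array 0 glycolysis genes rose, and 2 did without FVB replicate 2. The polyol list had a fallen gene without D6 replicate 3 or OVE replicate 3, and 0 without any 1 of the other 10 arrays.

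Genes of vitamin D, calcium and phosphate handling went both ways: of 19 tested, 3 rose and 3 fell. Beside Casr, the FGF23 co-receptor Kl fell 1.27-fold (-0.35 ± 0.07) and the parathyroid hormone receptor Pth1r by 0.30. The calcium channel Trpv6 rose 1.31-fold and Stc1, a secreted protein that acts on phosphate and calcium transport, 1.69-fold (0.75 ± 0.16). Cyp27b1, which makes active vitamin D, read 6.27, 6.73 and 7.51 against 7.44, 8.44 and 9.39 and rose 3.22-fold (1.69 ± 0.17, adjusted p = 0.000253). Its change was 2.60 in mice with intact D6 and 0.77 in knockouts, where the adjusted p was 0.245, and the interaction had an unadjusted p of 0.000113 and an adjusted p of 0.173. The vitamin D receptor Vdr was at -0.02 ± 0.06.

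In the renin-angiotensin list 2 of 6 tested genes rose: Agt, angiotensinogen, read 9.90, 9.96 and 10.41 against 10.45, 10.82 and 11.22 and rose 1.67-fold (0.74 ± 0.14, adjusted p = 0.00997), and the peptidase Anpep by 0.24. Agt showed no overlap, and 1 of the 2 passed without D6 replicates 1 and 2, FVB replicates 2 and 3, OVE replicate 1 or any OVE-D6 array. Ace was at -0.08 ± 0.10 and the receptor Agtr1a at -0.07 ± 0.07.

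Part of the marker genes of the distal nephron fell. In bulk RNA, fewer cells of a type and less RNA per cell cannot be told apart. Among 15 tested genes of the thick ascending limb and distal convoluted tubule 5 fell and 0 rose (3.16% of all genes fell), with a median of -0.21, and among 12 of intercalated cells 4 fell and 0 rose, with a median of -0.27. The medians were -0.26 in mice with intact D6 and -0.13 in knockouts for the first list, and -0.32 and -0.16 for the second. In OVE against FVB alone 4 genes of each list fell. In OVE-D6 against D6 alone 0 passed with limma in either list (3 and 2 at an unadjusted p below 0.05). Egf, which these distal cells secrete, read 12.45, 12.51 and 12.62 against 11.58, 11.98 and 12.11 and fell 1.53-fold (-0.62 ± 0.08, adjusted p = 0.00186). Pvalb, a calcium-binding protein of the distal convoluted tubule, fell 1.55-fold (-0.63 ± 0.07), and the chloride-bicarbonate exchanger Slc26a4, pendrin, 1.55-fold (-0.63 ± 0.09). These 3 had separate groups, as did the potassium channel Kcnj10 (-0.31) and the sodium-chloride cotransporter Slc12a3 (-0.26), the target of thiazides. The ammonia carrier Rhbg fell by 0.40 and the proton pump subunit Atp6v1b1 by 0.32. In the first list 3 genes fell without any 1 of the D6 arrays, FVB replicates 2 and 3, OVE replicate 2 or OVE-D6 replicates 2 and 3, and 7 without OVE replicate 3. In the second 2 fell without D6 replicates 1 and 2, FVB replicate 3, OVE replicate 1 or OVE-D6 replicates 2 and 3, and 6 without OVE replicate 3.

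Other segments moved less. Of 18 proximal tubule markers 4 fell, among them the endocytic receptor Lrp2 by 0.26 and the transcription factor Hnf4a by 0.20, and the median was -0.06. The count was 0 without D6 replicate 2, FVB replicate 1, OVE-D6 replicate 1 or OVE-D6 replicate 3, and 1 or 2 without D6 replicates 1 and 3, FVB replicates 2 and 3 or OVE replicates 1 and 2. The phosphate carrier Slc34a1 was at -0.06 ± 0.05. Of 12 principal cell markers the water channel Aqp4 alone fell, by 0.56. Of 13 podocyte markers 2 fell: Nphs1, nephrin of the slit diaphragm, from 8.21, 8.34 and 8.59 to 7.37, 7.87 and 8.27 (-0.51 ± 0.09, adjusted p = 0.0099), and the basement membrane collagen Col4a3 by 0.33, and 5 passed without OVE replicate 3. The podocyte factor Wt1 was at -0.19 ± 0.09. Among 16 endothelial markers Esm1 fell and Cdh5 rose by 0.24, with a median of 0.06, and 0 rose without D6 replicate 2, any FVB array, OVE replicate 1 or OVE-D6 replicates 1 and 3.

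In the averaged effect 6 of 11 tested markers of smooth muscle and mesangium rose and 0 fell, with medians of 0.36 in the averaged effect, 0.39 in mice with intact D6 and 0.33 in knockouts. Acta2, smooth muscle actin, read 9.48, 9.90 and 10.08 against 10.27, 10.86 and 11.04 and rose 1.85-fold (0.89 ± 0.13, adjusted p = 0.00305). Tagln, an actin-binding protein, read 7.71, 7.76 and 7.89 against 7.93, 8.73 and 9.04 and rose 1.75-fold, and the contractile protein Cnn1 rose 2.17-fold (1.12 ± 0.19), with 1.09 and 1.15 in the 2 genotypes. Acta2 and Tagln had separate groups, and Cnn1 overlapped at 7.18 to 7.21. Des, Myh11 and Rgs5 rose by 0.51, 0.41 and 0.34. In OVE against FVB alone 4 rose and 1 fell, the integrin subunit Itga8 by 0.35 ± 0.09 (adjusted p = 0.03), and in OVE-D6 against D6 alone 0 passed with limma (5 at an unadjusted p below 0.05). Leaving out each array left 5 to 7 risen genes in the averaged effect.

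Genes of the urothelium, which lines the renal pelvis together with a coat of smooth muscle, moved beside these. Upk1b, a uroplakin, rose 2.89-fold (1.53 ± 0.31, adjusted p = 0.0138), from 5.95, 7.24 and 7.86 to 8.03, 8.80 and 9.04, with no overlap. In a list of 10 urothelial genes made after these values were seen, 3 rose (Upk1b, Upk1a by 1.13 and Upk2 by 0.47), and the list mean was -0.48 to 0.52 on non-diabetic, 0.28 to 0.64 on OVE and 0.22 to 0.64 on OVE-D6 arrays. Krt5, Upk3a and Upk3b were at 0.22 ± 0.18, 0.11 ± 0.10 and 0.11 ± 0.19. The part of the amount of renal pelvis in each kidney sample in the smooth muscle values was not tested.

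**Figure D4:**
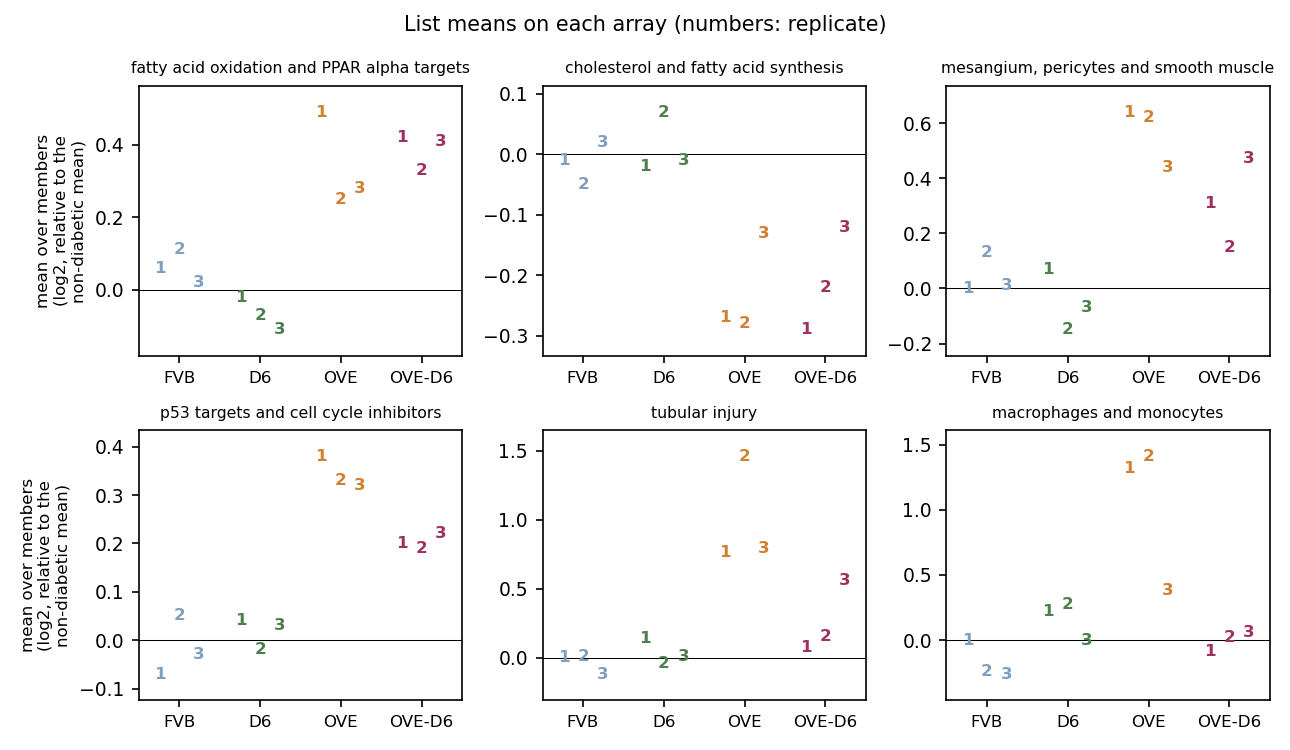
Mean log2 value of 6 gene lists on each array, relative to the mean of the non-diabetic arrays; numerals give the replicate and each panel has its own scale. The fatty acid list lies at 0.25 to 0.49 on the 6 diabetic arrays and at -0.11 to 0.11 on the others, while macrophage genes lie at 1.32 and 1.41 on OVE replicates 1 and 2, 0.38 on OVE replicate 3 and -0.09 to 0.06 on OVE-D6 arrays.

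Of 18 tested targets of p53, the DNA damage factor, and inhibitors of the cell cycle, 6 rose and 0 fell, and 1 passed in OVE-D6 against D6 alone. The median was 0.18, with 0.29 in mice with intact D6 and 0.12 in knockouts, and the list mean was -0.07 to 0.05 on non-diabetic, 0.32 to 0.38 on OVE and 0.19 to 0.22 on OVE-D6 arrays. Eda2r, a receptor of the TNF receptor family, read 5.26, 5.48 and 5.64 against 6.12, 6.41 and 7.03, passed in each genotype and rose 2.01-fold (1.01 ± 0.09, adjusted p = 0.000117), but its non-diabetic values lie under the background level of 5.93, so the size of the rise is uncertain. Phlda3, an inhibitor of AKT, read 6.91, 7.27 and 7.42 against 7.71, 8.06 and 8.48 and rose 1.81-fold (0.86 ± 0.10). Plk2 and Cdkn2c, which restrain the cell cycle, rose by 0.48 and 0.35, by nearly the same amount in each genotype (0.50 and 0.47, 0.37 and 0.34). All 4 had separate groups. Gadd45b and Ccng1 rose by 0.52 and 0.30.

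Genes of cell division had larger changes in mice with intact D6, a difference that passed its test in no gene. Of 27 tested cell cycle and replication genes 16 rose and 0 fell, with a median of 0.39, which was 0.68 in OVE against FVB and 0.12 in OVE-D6 against D6. No gene of the list had a larger change in the knockouts, and 18 had an unadjusted interaction p below 0.05. Mki67, a marker of dividing cells, read 6.15, 6.54 and 6.97 against 6.74, 7.48 and 7.99 and rose 1.74-fold (0.80 ± 0.18, adjusted p = 0.021), by 1.23 and 0.37. The cyclins Ccna2 and Ccnb2, the kinase Cdk1 and the nucleotide enzyme Rrm2 rose by 0.79, 0.76, 0.75 and 0.74. The number that rose was 7 without OVE replicate 2, 8 without FVB replicate 3 and 9 without D6 replicate 3, FVB replicate 2 or OVE-D6 replicate 3.

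Tubular injury genes showed the same tilt. Of 22 tested, 13 rose and 0 fell, and the median of 0.56 was made of 0.77 in mice with intact D6 and 0.19 in knockouts. Lcn2, a lipocalin shed by injured tubules, ran from 6.54, 6.84 and 7.63 to 7.08, 9.50 and 11.51 and rose 4.65-fold (2.22 ± 0.38, adjusted p = 0.00575), by 3.76 and 0.67. Havcr1, the injury marker KIM-1, rose 2.58-fold (1.37 ± 0.25), by 2.24 and 0.50, Cd44, a hyaluronan receptor, by 1.79 and 0.18, and Timp1, an inhibitor of matrix proteases with an FVB mean under the background level, by 1.88 and 0.20. In each the knockout change did not pass alone, and the diabetic arrays overlapped the others. Within OVE-D6, the mean of the list was 0.07, 0.15 and 0.56 on replicates 1, 2 and 3, the third being the array with adrenal genes. Without OVE-D6 replicate 3, and without D6 replicate 2, 8 genes of the list passed.

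Matrix and TGF-beta genes rose in part. Of 35 matrix genes 11 rose and 2 fell, with medians of 0.36 in the averaged effect, 0.61 in mice with intact D6 and 0.06 in knockouts, and 20 rose without OVE replicate 3. Fn1, fibronectin, read 9.66, 9.92 and 10.13 against 10.26, 10.76 and 11.88 and rose 1.88-fold (0.91 ± 0.17, adjusted p = 0.00894) with no overlap. Lox, which cross-links collagen, and Postn, a matrix protein of scars, rose 2.21-fold and 1.75-fold, Postn not without OVE-D6 replicate 3 (adjusted p = 0.0911). The fallen genes were Col4a3 and Col4a4, by 0.33 and 0.31, with 1 of them left without D6 replicate 2 or OVE-D6 replicate 3, while Col4a2 rose by 0.41 and Col1a1 did not pass (0.50 ± 0.19). Of 20 TGF-beta genes 5 rose: the ligands Tgfb2 (0.56 ± 0.09) and Tgfb3 (0.73 ± 0.20), the induced matrix proteins Tgfbi (0.64 ± 0.07) and Ccn2 (0.68 ± 0.14) and the BMP antagonist Grem1 (0.66 ± 0.16). Tgfbi and Tgfb2 had separate groups. Tgfb1 itself was at 0.17 ± 0.10. The averaged count was 3 without D6 replicate 1 or 2, FVB replicate 2 or 3 or OVE-D6 replicate 3.

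Of 16 genes of glucocorticoid binding and response 6 rose and 1 fell, with medians of 0.34 in the averaged effect, 0.54 in mice with intact D6 and 0.10 in knockouts. Among the 6 is Lcn2, which is also counted in the tubular injury and acute-phase lists. In OVE-D6 against D6 alone 1 passed, and 6 had an unadjusted interaction p below 0.05. The list mean was 0.34 to 0.90 on OVE arrays and 0.27, 0.31 and 0.47 on OVE-D6 replicates 1, 2 and 3, the third being the array with adrenal genes, without which 5 genes rose. Serpina6, the plasma carrier of corticosteroids, had the largest averaged change of all tested genes, 5.27-fold (2.40 ± 0.41, adjusted p = 0.00643). Its values were 6.41, 7.84 and 8.31 in non-diabetic and 7.65, 10.58 and 11.84 in diabetic arrays, so the groups overlapped. It was larger in the knockouts (3.20) than in mice with intact D6 (1.59, adjusted p = 0.12), and the interaction had an unadjusted p of 0.0759 and an adjusted p of 0.566. Fkbp5, a chaperone of the glucocorticoid receptor, read 7.85, 8.06 and 8.39 against 8.46, 8.79 and 9.85 and rose 1.89-fold with no overlap. Hsd11b1, which regenerates active corticosteroid, rose by 0.39, and the receptor Nr3c1 fell by 0.24. The list had a fallen gene in 3 of the 12 fits that left out an array, those without OVE replicates 1 and 3 and OVE-D6 replicate 2. The targets Per1, Sgk1 and Tsc22d3 did not pass, at 0.42 ± 0.13, 0.29 ± 0.12 and 0.08 ± 0.09, and neither did Zbtb16, Dusp1, Tat and Klf9.

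The metallothioneins Mt1 and Mt2, small metal-binding proteins, rose 1.59-fold and 1.52-fold (0.67 ± 0.09 and 0.61 ± 0.08, both with adjusted p = 0.00133). Mt1 read 10.19, 10.42 and 10.60 against 10.76, 11.17 and 11.30 with no overlap, and as close copies the genes may be read together. Of 12 members of the glucocorticoid list with a RefSeq promoter, Mt1 and Sgk1 hold the receptor motif GNACANNNTGTNC, which 0.537% of all promoters hold in either strand. Of 3 other searches, the sterol element TCACNCCAC matched 1 of 14 promoters of the synthesis list (Hmgcs1; 1.44% of all promoters), the antioxidant element TGACNNNGC 7 of 20 of the NRF2 list, 1 of them of a gene that rose (Gsta3; 14% of all), and the CArG box 0 of 8 of the smooth muscle list (1.81% of all). The Mt1 promoter is shown since it is the one with a match among the genes that rose (GRCm38.p6, chr8:94178839-94179138, plus strand), with the match, 94 to 82 bases before the start, in capitals.
Mt1: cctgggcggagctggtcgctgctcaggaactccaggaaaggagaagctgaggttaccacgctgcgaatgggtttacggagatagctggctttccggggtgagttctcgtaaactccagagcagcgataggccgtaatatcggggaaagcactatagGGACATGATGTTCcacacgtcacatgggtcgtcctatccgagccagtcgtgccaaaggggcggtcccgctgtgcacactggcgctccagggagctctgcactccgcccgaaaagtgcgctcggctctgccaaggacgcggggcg

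Cytochrome P450 genes were split: 9 of 23 rose and 3 fell. In OVE against FVB alone 8 rose and 4 fell, with a median of 0.34. In OVE-D6 against D6 alone 3 rose and 0 fell, with a median of 0.14. An unadjusted interaction p below 0.05 was found in 11 of the 23, against 9.99% of all genes. Apart from the Cyp4a genes and Cyp27b1, Cyp2e1, which oxidises ketones and ethanol, rose 1.75-fold (0.81 ± 0.18), by 0.76 and 0.86, and Cyp1b1, an oxidase of steroids, rose 1.76-fold with separate groups. Cyp2d12 and Cyp4b1 fell by 0.86 and 0.52. In the averaged effect the count of fallen genes was 0 without D6 replicate 2. It was 1 without D6 replicate 3, OVE replicate 2, OVE-D6 replicate 3 or any FVB array. Among 24 NRF2 targets and antioxidant enzymes 5 rose: the quinone reductase Nqo1 (0.69 ± 0.11), from 8.08, 8.23 and 8.59 to 8.77, 8.88 and 9.32, the glutathione transferases Gsta3, Gstm1 and Gstm3 by 0.39, 0.36 and 0.26, and the glucose-induced Txnip (0.46 ± 0.09). Nqo1, Gstm1 and Txnip had separate groups, and 3 of the list passed without D6 replicate 2 or 3, FVB replicate 3 or OVE-D6 replicate 3. Hmox1 did not pass (0.99 ± 0.35).

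Of 16 kidney genes known to differ between male and female mice, 4 rose and 3 fell. Those that rose were Cyp4a12a, Cyp4a12b, Cyp2e1 and Cyp4a14, and those that fell were Kap, the transporter Slc7a13 and its relative Slc7a12. Cyp4a12a and Kap, both known to be higher in males, moved in opposite directions on these arrays, which all read as female. Slc7a13, with values of 5.22 to 6.48, is near background.

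Transporters fell more often than they rose in the organic ion group: 5 of 25 fell and 1 rose. The chromosome 19 genes Slc22a26, Slc22a30 and Slc22a29 fell by 1.57, 0.81 and 0.69 and the efflux pump Abcb1a by 0.47. The last 3 moved less in the knockouts, at -0.45, -0.26 and -0.29. Slco4c1, an organic anion carrier of the basolateral membrane, rose 1.75-fold (0.81 ± 0.14), by 0.84 and 0.78, with no overlap. The major anion carriers Slc22a6 and Slc22a8 were at -0.06 ± 0.11 and -0.09 ± 0.10. Without D6 replicate 2 or 3, FVB replicate 2, OVE replicate 2 or OVE-D6 replicate 3, 3 of the 5 fell. Of 24 amino acid and peptide carriers 2 rose, Slc38a3 and Slc15a1, and 3 fell, Slc7a13, Slc7a12 and Slc6a20b. Without OVE replicate 3, 6 rose, and without OVE-D6 replicate 3 or 1 or D6 replicate 2, 1 rose and 1 fell. The counts were 4 and 1 without FVB replicate 1, and 1 fell without D6 replicate 3 or OVE replicate 2.

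Immune genes had their larger changes in mice with intact D6, and the difference between genotypes passed limma's test in none of them. Of 23 macrophage and monocyte genes 5 rose in the averaged effect, but the median change was 1.24 in OVE against FVB, where 19 rose, and -0.17 in OVE-D6 against D6, where 0 passed with limma (2 at an unadjusted p below 0.05). The controls differed as well. Relative to the non-diabetic mean, the list mean was -0.24 and -0.26 on FVB replicates 2 and 3 and 0.22 and 0.27 on D6 replicates 1 and 2. It was 0.00 on FVB replicate 1 and D6 replicate 3, and -0.09 to 0.06 on OVE-D6 arrays. The negative knockout median is thus relative to D6 controls at or above the FVB level. The interaction had an unadjusted p below 0.05 in 21 of the 23 genes, and no adjusted p below 0.05. Lyz2, lysozyme of phagocytes, read 8.47, 9.19 and 9.86 against 9.46, 10.21 and 12.15 and rose 2.65-fold (1.40 ± 0.24, adjusted p = 0.00575), made of 2.78 and 0.03. Cd14, the endotoxin co-receptor, had the smallest interaction p among the genes that passed (unadjusted 1.78e-05, adjusted 0.173), with 1.26 and -0.01. Csf1, the growth factor of macrophages, and the complement receptor C5ar1 rose by 0.42 and 0.41 on average, made of 1.0 and -0.15 and of 0.86 and -0.05. Without OVE replicate 3, 17 macrophage genes rose.

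Soluble inflammatory genes had the same profile. Of 8 tested chemokines that D6 scavenges 1 rose, Ccl2, by 1.91 and 0.19 in the 2 genotypes, and the medians were 0.77 and -0.01. Of 15 other chemokines 5 rose, among them Cxcl13, a B cell attractant, 2.30-fold (1.2 ± 0.23), with 1.76 and 0.65 and no overlap, and Cxcl10, a T cell attractant, by 1.92 and 0.26. In the complement list 5 of 18 rose and 1 fell (12 rose in OVE against FVB alone), a count of 1 to 3 without any array other than OVE replicate 3 and of 13 without that. Of 14 acute-phase genes 5 rose, Serpina3n, a protease inhibitor, by 2.26 and 0.26. That count was 2 without OVE-D6 replicate 3 and 3 without D6 replicate 2, and that of the other chemokines was 3 without D6 replicate 3 or FVB replicate 3. With limma 0 genes passed of 8 for MHC class II, 17 interferon-induced, 10 of T and NK cells, 7 of B cells and 5 of neutrophils, and 0, 4, 3, 3 and 0 of these had an unadjusted p below 0.05. Without OVE replicate 3, 3 MHC class II, 3 interferon-induced, 3 T and NK cell and 2 B cell genes rose. Of the chemokines that D6 scavenges, 4 rose without OVE replicate 3, 3 without OVE replicate 1 and 2 without OVE replicate 2 or FVB replicate 2.

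**Figure D5:**
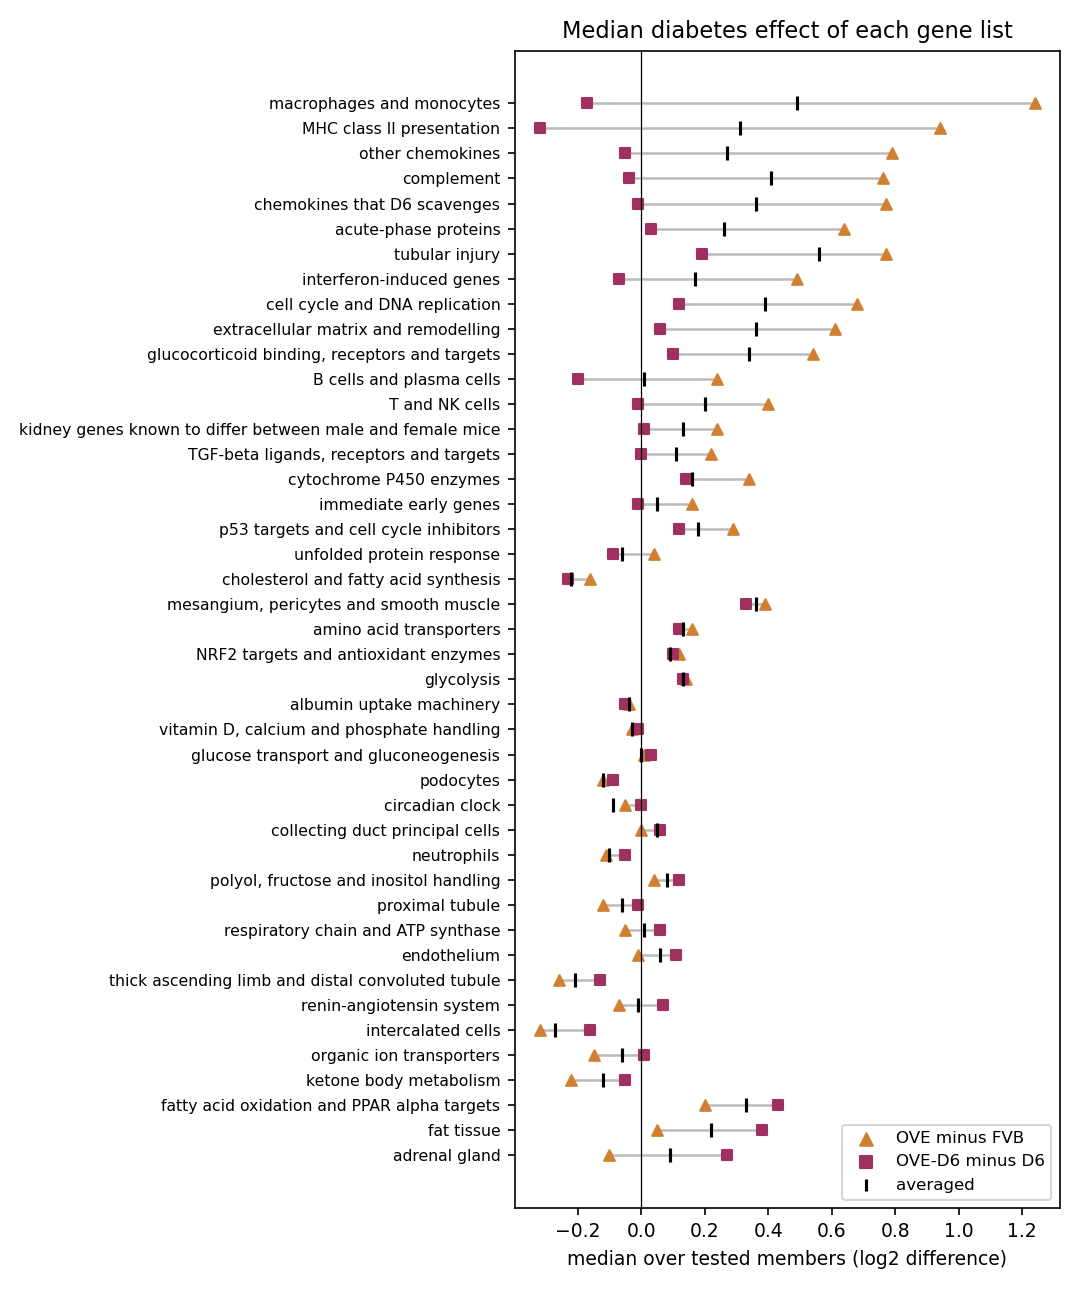
Median log2 difference over the tested members of 43 gene lists in OVE against FVB (triangles), OVE-D6 against D6 (squares) and averaged (bars), ordered by the gap between the genotypes. Macrophage genes have medians of 1.24 and -0.17, smooth muscle genes 0.39 and 0.33, sterol and fatty acid synthesis -0.16 and -0.23, and fatty acid oxidation 0.20 and 0.43.

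Several programmes showed few or no changes. Of 17 clock genes 0 passed with limma and 6 had an unadjusted p below 0.05, with changes from -0.28 to 0.67, and 3 rose without OVE replicate 3 or OVE-D6 replicate 2. Of 23 genes of the unfolded protein response 2 rose, Asns by 0.56 and Dnajb9 by 0.26, with 1 left without D6 replicate 3, FVB replicates 1 and 2, OVE replicate 2 or OVE-D6 replicate 2, and Hspa5 and Ddit3 were at -0.11 ± 0.18 and 0.15 ± 0.17. Of 16 immediate early genes 2 rose, Myc and Fosl2, by 0.68 and 0.55, and 4 rose without OVE replicate 1. Of 9 genes of albumin uptake Lrp2 alone fell, Cubn was at -0.13 ± 0.06, and 0 fell without D6 replicates 2 and 3, FVB replicates 1 and 3, OVE replicate 2 or OVE-D6 replicates 1 and 3. Adipose genes varied within groups, with list means from -0.68 to 1.01 among the non-diabetic arrays (highest on FVB replicates 2 and 3, at 1.01 and 0.43) and from -0.54 to 0.50 among the diabetic arrays. Of 11 fat genes 1 rose, Fabp4 (0.55 ± 0.14). The count was 0 without D6 replicates 1 and 2, FVB replicates 1 and 3, OVE replicate 1 or OVE-D6 replicates 1 and 3, 3 rose without OVE-D6 replicate 2, and 2 fell without FVB replicate 1. Of 7 tested adrenal genes 0 passed with limma and 1 had an unadjusted p below 0.05.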

How the data were processed

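RNA of whole frozen kidneys, 1 array per mouse, was labelled with a whole-transcript kit from 100 ng of RNA (integrity numbers over 8.8), per the labels' protocols. The authors deposited 1 table of log2 values per probe set. Their summarisation and normalisation are not given in the sources used here. Precision is limited by the number of arrays. Of 35556 probe sets, 21789 carry 1 gene symbol, 1621 several and 12146 none in the platform annotation. Symbols were updated through the RefSeq gene table of GRCm38.p6 by Entrez identifier (21698) or accession (3), and 88 kept theirs. The probe set with the highest mean stood for each of 19936 genes (1001 genes have several), and 16480 genes above an array's 25th percentile on at least 3 arrays were tested.

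The 4 group means were fitted with limma 3.58.1 in R 4.3.3 (8 residual degrees of freedom, eBayes defaults), with contrasts for the averaged effect, each genotype and their difference, and Benjamini-Hochberg adjustment over all tested genes at 0.05. On simulated data with 200 changed genes of 16480 in 20 runs, the averaged contrast recovered 95.8% of 1.5-fold and 99.5% of 2-fold changes with 4.77% false calls. The simulation drew independent normal noise with the same spread in all groups and made the changes alike in both genotypes. It held no outlying array, no correlated genes and no change smaller than 1.5-fold, so its rates may not hold for these data.

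The members and gene lists were chosen with earlier results of these data known, and the urothelial list after its genes' values were seen. Named genes were, in the averaged effect and leaving out unnamed and predicted genes: the 12 per direction with the largest change among those with separate groups and one sign in both genotypes, the 8 per direction with the largest change called in each genotype, the 6 per direction with the smallest interaction among changes of at least 1, the 8 with the smallest interaction p, and the 5 largest of each list. Other list members are given as values. A list is described by its counts and median, with no set test.

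Promoters (300 bases) and the microRNA are from RefSeq's GRCm38.p6 tables, and motifs were matched on both strands. Alternatives covered the filter, normalisation, probe set choice, variance model, array weights, threshold, model terms, the replicate number as a block and each array left out. Same-numbered arrays of different groups correlated at -0.248 to 0.123 in their deviations from the group means.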

Additional observations from a re-analysis of the deposited data

Results flagged for a closer look

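In some groups of 6 arrays 1 array lay far from the other 5. Of 398 groups checked over 200 genes, 23 had such an array, and chance gives about 5% of groups. Among genes past the threshold, the non-diabetic arrays concerned were FVB replicate 1 for Anxa13 (6.84, nearest other 7.15), Krt20 (5.11, nearest 4.88) and Slc7a12 (13.05, nearest 12.79), FVB replicate 2 for Cyp4a14 (12.45, nearest 12.15), FVB replicate 3 for Esm1 (8.88, nearest 8.61) and D6 replicate 1 for Col4a4 (8.82, nearest 9.05). The diabetic arrays concerned were OVE replicate 1 for Creb3l3 (7.13, nearest 6.90), OVE replicate 2 for Gstm3 (9.15, nearest 8.96), Insig1 (9.29, nearest 9.69), Slc12a3 (12.19, nearest 12.56) and Cpt2 (11.1, nearest 11.31), OVE replicate 3 for Srebf1 (8.55, nearest 8.22), OVE-D6 replicate 2 for Gadd45b (7.86, nearest 8.23) and Trpv6 (6.82, nearest 7.09) and OVE-D6 replicate 3 for Dnajb9 (10.89, nearest 11.1).

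Genes that did not pass gave 8 more. OVE-D6 replicate 3 held the adrenal genes Cyp11b1 (9.93, nearest 5.55) and Star (8.87, nearest 7.07). The others were Ucp1 on OVE-D6 replicate 1 (5.55, nearest 5.06), Ddit3 on D6 replicate 2 (9.18, nearest 8.70), Pck1 on D6 replicate 3 (13.0, nearest 13.15), Hmox1 on FVB replicate 2 (9.47, nearest 8.48), Per1 on FVB replicate 3 (8.75, nearest 9.12) and Slc2a2 on FVB replicate 1 (10.24, nearest 10.8).

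In 4 genes past the threshold in the averaged effect, each diabetic array of one genotype moved one way and each of the other genotype the opposite way, relative to its own controls' mean. C3ar1, the C3a receptor, had a difference between genotypes (knockout minus intact D6) of -1.69 (interaction adjusted p = 0.193), Mrc1, the mannose receptor, of -1.49 (0.173), Elf4, a transcription factor, of -0.98 (0.173) and Hormad1, a meiotic gene with values near background, of 0.60 (0.173). None passed the test of the difference. The same split of arrays was seen in 3 genes that did not pass in the averaged effect: the receptor Agtr1a with a difference of 0.26 (interaction adjusted p = 0.594), Hadha with 0.18 (0.611) and Tsc22d3 with -0.66 (0.287).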

How the results depend on the processing

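Named genes were refitted under both filters, both normalisations, the mean of probe sets, the additive model, the replicate block and each array left out, but not with array weights, a variance trend or diabetes as the only term. In these fits no named gene that was tested changed direction (the 50th percentile filter kept 132 of 142), and the counts over all genes moved. At an adjusted p of 0.01 the averaged count was 269, and 214 genes changed at least 1.5-fold. OVE against FVB fitted on its own 6 arrays gave 440 genes, OVE-D6 against D6 on its own 6 gave 51, and 31 passed in both. In OVE-D6 against D6 a variance trend with a robust fit gave 76 genes, array weights 87 and the replicate number as a block 29. Called in both genotypes were 63 genes with array weights and 25 with the replicate block, which left 1030 in the averaged effect. Deviations of same-numbered arrays had a median correlation of 0.0225 over 18 pairs, against -0.003 over 36 pairs with different numbers. With 3 arrays per group these correlations cannot decide whether the numbers mark a shared batch, which was not tested. Leaving out 1 array at a time gave 657 to 1916 genes in the averaged effect, 359 to 1901 in OVE against FVB, 17 to 74 in OVE-D6 against D6, 15 to 56 in both genotypes and 0 to 377 in the test of the difference, where the highest counts came without OVE replicate 3 and the cause was not tested. An additive model gave 960 genes in the averaged effect, and diabetes as the only term 841. Of 142 named genes, 84 stayed past the threshold under every alternative run on them, and 36 missed it in the additive model. Medians of gene lists moved by more than the array spread in 7 of 763 cases, among them the acute-phase genes at 0.771 and the chemokines that D6 scavenges at 0.62 under a filter at the 50th percentile.

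Only 3 arrays per group, several close gene copies on the array, values near background and the unstated normalisation limit what can be read. With no count per probe, depth sets no bound here. Whole kidney RNA mixes cell types, adrenal genes were high on 1 array, and fat genes varied between arrays.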

Other observations

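The brown fat protein Ucp1 ranged from 4.86 to 10.09 among the 6 non-diabetic arrays and from 4.91 to 5.55 among the 6 diabetic arrays. Its averaged change of -1.84 ± 0.65 was the largest fall of all tested genes, and it did not pass (adjusted p = 0.111). Adipoq, a hormone of fat cells, ranged from 4.28 to 6.92 and from 4.69 to 6.80. The adrenal genes Star and Cyp21a1 were at 8.87 and 9.16 on OVE-D6 replicate 3, while the other arrays lay at or below 7.07 for Star and 5.28 for Cyp21a1.

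Hmox1, the haem-degrading enzyme, reached 11.03 on a diabetic array, against a diabetic median of 9.26 and a non-diabetic range of 8.19 to 9.47. Psca, a gene of the urothelium, ran from 5.69 to 7.64 in non-diabetic and from 6.74 to 7.64 in diabetic arrays, and its change of 0.66 ± 0.34 did not pass.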
